A study of Sus scrofa with 14 samples.

Results

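Interferon gamma (IFNG) and 4 genes that cells switch on under interferons (IRF7, USP18, MX2 and IFI44L) were examined in pregnant pig uterus. All probe sets annotated with the symbol of 1 of these genes and no other were taken, which gave 9 probe sets for the 5 genes, out of 6765 genes with a probe set of their own and 23999 probe sets tested. IFNG and USP18 had 1 probe set each, IRF7 and MX2 had 2 and IFI44L had 3, numbered here from the brightest.

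The samples were uteri of 14 sows, 5 classed as having high prolificacy and 9 as having low prolificacy, which are called high 1 to high 5 and low 1 to low 9 by their replicate numbers. All sows were F2 animals of an Iberian x Meishan intercross, slaughtered at days 30 to 32 of the fifth gestation, and each gave 1 Affymetrix array. Samples were frozen at once, and the labels name no agent given to the sows. The labels do not give the layer of the uterine wall that was sampled, its distance from a conceptus or the litter sizes behind the classes. The study asked which genes differ between uteri of the 2 classes, and here high minus low prolificacy is reported on the log2 scale.

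Interferons are secreted proteins that warn cells of viruses and steer immune cells. IFNG, the type II interferon, is made by activated T and NK cells. In the pig it is also secreted, together with interferon delta, by the trophectoderm of the conceptus around attachment, and interferon-stimulated genes of the endometrium respond in that period. Type I interferons act through the receptor IFNAR1 and IFNAR2 with the kinases JAK1 and TYK2, whereas IFNG acts through IFNGR1 and IFNGR2 with JAK1 and JAK2. PAG6, a pregnancy-associated glycoprotein of the trophoblast, serves as a measure of conceptus RNA in a sample. The PAG family has many closely related copies, whose transcripts may bind to the same probes.

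The arrays had medians between 5.72 and 5.84 on the log2 scale, and no 2 arrays held identical values. Array weights in limma are lower for arrays that deviate more from their class. They were lowest for high 5 (0.25) and low 3 (0.29), and lay between 0.63 and 2.24 for the others. Detection calls were not analysed here, so for probe sets at low levels the presence of a transcript cannot be judged. The tissue held RNA of both epithelium and smooth muscle in every sample, and the levels of their markers differed between the classes. KRT8, a keratin of simple epithelia, was at 11.68 ± 0.62 in the 5 high prolificacy uteri and 9.21 ± 0.83 in the 9 low prolificacy uteri (mean ± SD). FHL1, a LIM-domain protein of muscle, was at 8.45 ± 1.18 in the 5 high prolificacy uteri and 12.27 ± 0.37 in the 9 low prolificacy uteri (mean ± SD). In bulk tissue, fewer cells of a type and less RNA per cell cannot be told apart, and this holds for each result below.

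IFNG was at a low level in all sows but high 4. Its single probe set gave 2.45, 2.79, 2.75, 6.67 and 3.19 in high 1 to high 5, and from 2.67 over a median of 2.95 to 4.31 in the 9 low prolificacy arrays, the highest of which was low 5. High 4 therefore stood far above the other 13 arrays, whose IFNG levels all lay below the lowest array median, and without it the ranges of the classes overlapped. The mean was 3.57 ± 1.75 in the 5 high prolificacy uteri and 3.08 ± 0.50 in the 9 low prolificacy uteri (mean ± SD), a difference of 0.49 ± 0.56 (SE) with a 95% interval of -0.70 to 1.68 (limma adjusted p = 0.70). Without high 4 the difference was -0.28 (limma adjusted p = 0.61).

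By the mean of a marker list, high 4 was also the array richest in conceptus transcripts. The mean of the 15 trophoblast and fetal membrane markers on the array, each centred on its own mean, was 2.40 in high 4, against at most 0.64 in any other array. AFP, the fetal plasma protein alpha-fetoprotein, was at 11.10 in high 4, 6.78 in high 1 and no more than 4.29 in the other 12. The markers of the list did not all run this way. HBE1, an embryonic globin picked out after its values were seen, was highest in low 5 (12.65), then in high 4 (12.57), and lowest in high 1 (3.97). PAG6 gave 10.74, 3.86, 4.33, 11.43 and 6.21 in high 1 to high 5, and from 3.60 over a median of 5.24 to 10.89 in the low prolificacy arrays. High 1, with nearly as much PAG6 as high 4, had the lowest IFNG level of all 14 arrays, at 2.45, and low 4, with a PAG6 level of 10.89, had an IFNG level of 3.29. The macrophage and dendritic cell markers, 12 on the array, also had their highest mean in high 4, at 0.69. The T and NK cell markers, 16 on the array, were highest in high 5, at 0.37, with high 4 at 0.21. The part of these cell types in the IFNG level of high 4 was not tested.

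**Figure D1:**
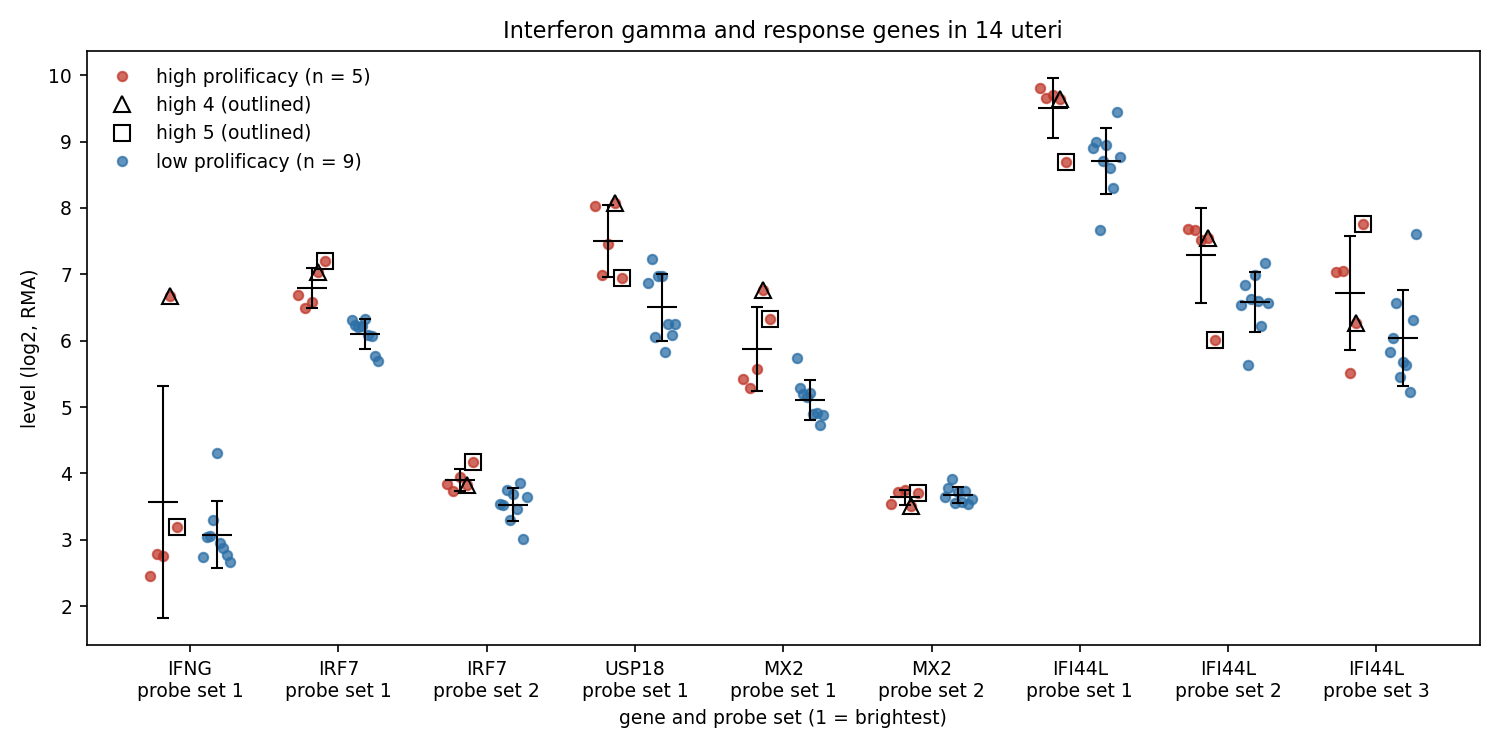
Levels (log2) of the 9 probe sets of IFNG, IRF7, USP18, MX2 and IFI44L, with 1 point per array, the 5 high prolificacy arrays left of the 9 low prolificacy arrays, and bars for the mean ± SD. The outlined triangle is high 4 and the outlined square high 5. High 4 stands alone in IFNG, all high points lie above all low points in the brightest IRF7 probe set, and high 5 is the lowest high point in the first pair of IFI44L probe sets and the highest in the third.

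Of the 9 probe sets, 2 were higher in high prolificacy at an adjusted p under 0.05 in limma, those of IRF7 and USP18, and 0 were lower. Over the whole array, 7.85% of probe sets passed, and 3.5% passed in the higher direction. The brightest probe sets of all 5 genes had a positive difference, as had 60.1% of the brightest probe sets of all genes. An unadjusted p under 0.05 was found for 6 of the 9 probe sets and for 21.1% of all probe sets.

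IRF7, the transcription factor that amplifies type I interferon production, was at 6.68, 6.49, 6.58, 7.03 and 7.19 in high 1 to high 5, and from 5.70 over a median of 6.21 to 6.33 in low prolificacy. Every high prolificacy array lay above every low prolificacy array, which was so of 0.904% of all probe sets. The level averaged 6.80 ± 0.30 in the 5 high prolificacy uteri and 6.11 ± 0.23 in the 9 low prolificacy uteri (mean ± SD), so that IRF7 rose 1.61-fold (log2 difference 0.69 ± 0.15 SE, limma adjusted p = 0.010). The dimmer IRF7 probe set ran the same way, with 3.90 ± 0.17 in the 5 high prolificacy uteri and 3.53 ± 0.26 in the 9 low prolificacy uteri (mean ± SD), and did not pass (difference 0.37, limma adjusted p = 0.11). High 5 had the highest and low 8 the lowest value in that probe set.

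USP18, the protease that removes ISG15 from proteins and dampens signalling from the type I receptor, was at 8.02, 6.98, 7.46, 8.07 and 6.94 in high 1 to high 5, and from 5.83 over a median of 6.26 to 7.23 in low prolificacy. High 1 and high 4 were the highest of the 14 arrays, while high 2 and high 5 lay within the range of the low prolificacy arrays, below low 2. USP18 averaged 7.50 ± 0.54 in the 5 high prolificacy uteri and 6.51 ± 0.51 in the 9 low prolificacy uteri (mean ± SD) and rose 1.99-fold (0.99 ± 0.27 SE, limma adjusted p = 0.037). The call was lost when any 1 of 7 arrays was left out (high 1, 3 or 4, or low 6 to 9), with a limma adjusted p between 0.025 and 0.092 over the 14 fits.

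MX2, a dynamin-like antiviral GTPase, was at 5.42, 5.29, 5.58, 6.76 and 6.33 in high 1 to high 5, and from 4.72 over a median of 5.15 to 5.73 in low prolificacy. High 4 and high 5 lay above all low prolificacy arrays, and the other 3 high prolificacy arrays lay below the highest of them, low 1. The difference of 0.77 ± 0.23 (SE), with a 95% interval of 0.27 to 1.27, did not pass (limma adjusted p = 0.060). It passed without high 1 (0.88, limma adjusted p = 0.036), without high 2 (0.91, 0.049) or without low 1 (0.84, 0.041), with an adjusted p of up to 0.15 over the 14 fits. The second MX2 probe set stayed between 3.50 and 3.91 in all arrays, with a difference of -0.033 (limma adjusted p = 0.89), and did not follow the first (r = -0.13 over 14 arrays, given as a description).

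IFI44L, an interferon-induced protein, was at 9.81, 9.66, 9.71, 9.65 and 8.70 in high 1 to high 5. In low prolificacy it ran from 7.66 over a median of 8.76 to 9.44. The first 4 high prolificacy arrays lay close together above all low prolificacy arrays, while high 5 lay below the median of the low ones. High 5 and low 3, each the lowest of its class here, were the arrays with the lowest weights. Whether array quality had a part in these values was not tested. The difference of 0.80 ± 0.25 (SE), with a 95% interval of 0.26 to 1.35, did not pass (limma adjusted p = 0.070). Without high 5 it was 1.00 (limma adjusted p = 0.029) and without low 8 it was 0.90 (0.040), with an adjusted p of up to 0.17 over the 14 fits.

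The other IFI44L probe sets were not alike. The second followed the first closely (r = 0.96 over 14 arrays, given as a description), with 7.69, 7.67, 7.51, 7.55 and 6.01 in high 1 to high 5 and a difference of 0.71 (limma adjusted p = 0.17). The third did not follow the first (r = 0.11). It gave 7.03, 7.05, 5.51, 6.26 and 7.75 in high 1 to high 5, where high 5 was the highest of the 14 arrays, and a difference of 0.68 (limma adjusted p = 0.36).

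The 4 response genes thus did not put the sows in the same order, and they were compared in pairs, an analysis chosen after their values were seen. IRF7 and MX2 followed each other over the 14 arrays (Pearson r = 0.90, permutation p adjusted over the 6 pairs 0.0003, and Spearman rho = 0.93, adjusted p = 0.00012). After the class means were subtracted, r was 0.81 (adjusted p = 0.0053, permuted within classes), and without high 4 and high 5, the arrays farthest from the IRF7 median, the pooled r was 0.80. In the other 5 pairs, the r after subtraction of class means lay between -0.43 for IRF7 with IFI44L and 0.44 for USP18 with IFI44L, with permutation p adjusted over the 6 pairs between 0.27 and 0.44. Over all 14 arrays 3 of these 5 pairs passed, those of USP18 with IRF7 (r = 0.72, rho = 0.76), MX2 (r = 0.68, rho = 0.71) and IFI44L (r = 0.69, rho = 0.77), each with an adjusted permutation p of 0.0093 for r. Without the 2 arrays farthest from the median of IRF7, the first r was 0.80, and without the 2 farthest from the median of USP18 the others were 0.49 and 0.66.

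Since the conceptus makes interferons, each response gene was set against IFNG and against PAG6 over the 14 arrays, and IFNG against PAG6, which made 9 relations. By Pearson's r with a permutation test, 0 of the 9 passed an adjusted p of 0.05, with 3 at an unadjusted p under 0.05, and by Spearman's rho 0 passed either threshold. Neither IFNG nor PAG6 levels fell into separate clusters of at least 3 arrays.

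Against IFNG, r was 0.46 for IRF7 (adjusted permutation p = 0.16), 0.44 for USP18 (0.16), 0.65 for MX2 (0.13) and 0.17 for IFI44L (0.56). Spearman's rho was 0.24, 0.099, 0.17 and -0.33 in the same order of genes, with adjusted permutation p between 0.44 and 0.83. Without high 4 alone, r was 0.099 for IRF7, -0.040 for USP18, 0.052 for MX2 and -0.28 for IFI44L, so the pooled values rested on that array. Without high 4 and low 5, the arrays farthest from the IFNG median, r was 0.16, -0.26, 0.18 and -0.58. Among the 9 low prolificacy arrays alone, r lay between 0.049 for IFI44L and 0.55 for IRF7 (exact permutation p = 0.13 for IRF7 before adjustment, 0.38 after).

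Against PAG6, r was 0.45 for IRF7 (adjusted permutation p = 0.16), 0.55 for USP18 (0.13), 0.43 for MX2 (0.16) and 0.21 for IFI44L (0.53), and rho was 0.49, 0.43, 0.44 and 0.033. USP18 was highest in high 4 and high 1, which were also rich in PAG6, yet low 4 with a PAG6 level of 10.89 had a USP18 level of 6.98, and low 6 with a PAG6 level of 8.03 had the lowest USP18 level of the 14, at 5.83. Without high 4 and low 4, r for these 4 genes was 0.38, 0.43, 0.23 and 0.16. After the class means were subtracted, r was 0.52, 0.61, 0.42 and 0.12, with adjusted permutation p between 0.15 and 0.78. Among the low prolificacy arrays alone, r was 0.61 for IRF7, 0.43 for USP18, 0.33 for MX2 and 0.070 for IFI44L (exact permutation, adjusted p between 0.38 and 0.87).

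IFNG against PAG6 gave r = 0.54 (adjusted permutation p = 0.13) and rho = 0.46 (0.28). It was 0.29 without high 4 (0.78) and 0.23 without high 4 and low 4 (0.62). Leaving out high 1, the array with much PAG6 and the least IFNG, gave r = 0.71 and was the only one of the 14 such fits in which the relation passed (adjusted permutation p = 0.041).

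**Figure D2:**
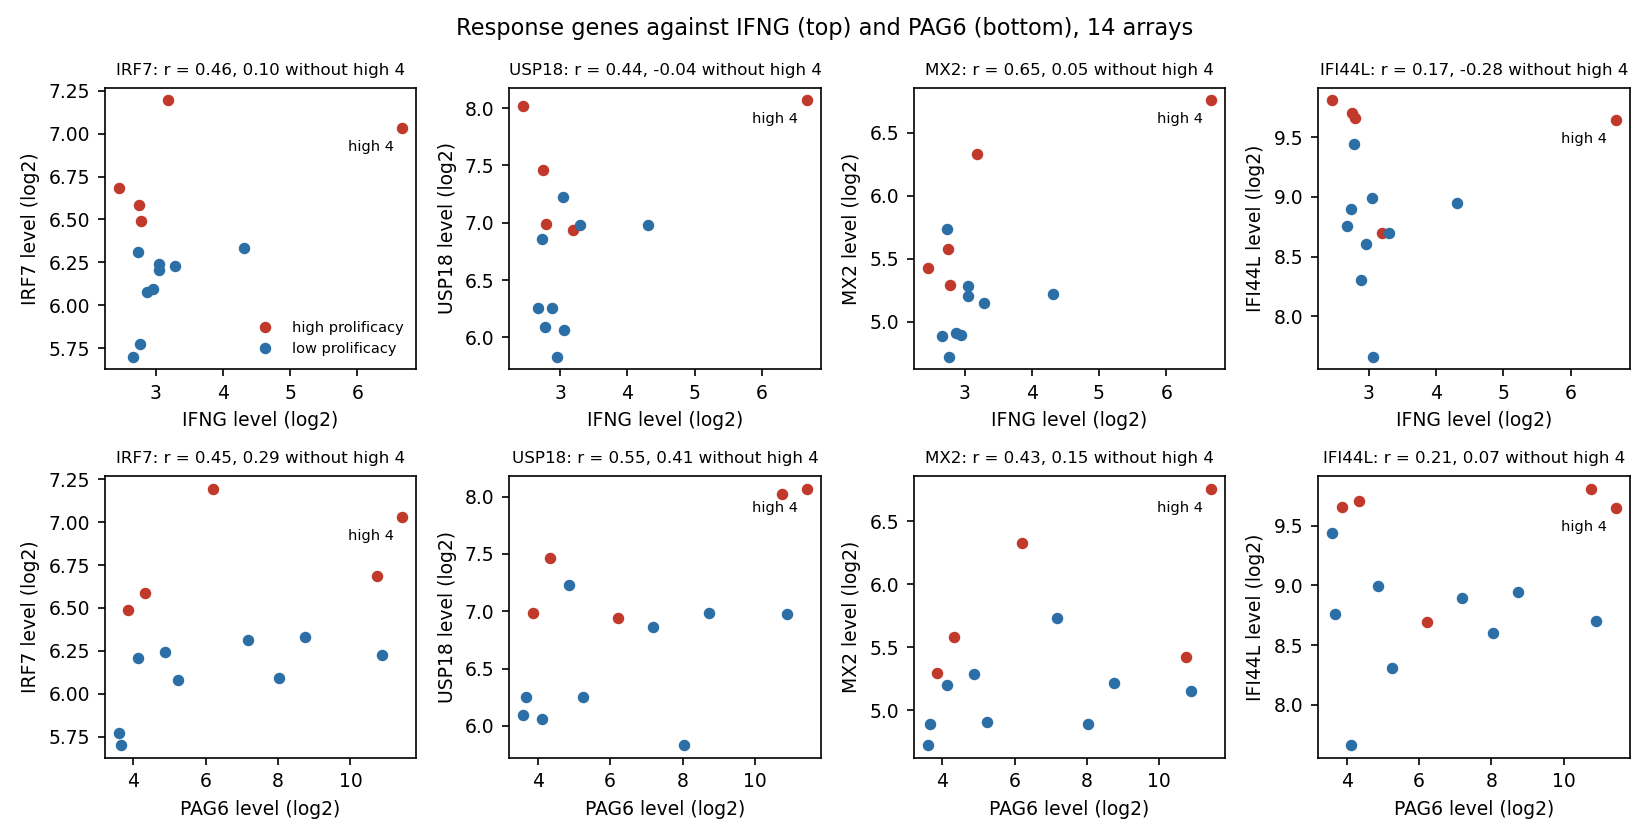
Levels (log2) of IRF7, USP18, MX2 and IFI44L on the vertical axes against IFNG (top) and PAG6 (bottom), with 1 point per array, red for the 5 high and blue for the 9 low prolificacy arrays. High 4, at an IFNG level of 6.67, is the single point on the right of the top panels, and r falls to between -0.28 and 0.099 in them when it is left out.

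The genes whose levels followed IFNG most closely after subtraction of class means shared the high value in high 4. By Pearson's r over 14 arrays they were SERPINA1 (0.97), MCM4 (0.95), APOC2 (0.95), APOB (0.95), B2M (0.94, a dimmer of its probe sets) and CENPT (0.94), and r lay between 0.67 and 0.87 without high 4. SERPINA1, the plasma protease inhibitor alpha-1-antitrypsin, had a level of 12.31 in high 4, from 5.29 to 5.89 in the other high prolificacy arrays, and up to 7.17, in low 5, among the low ones. APOB, the core protein of large lipoproteins, had a level of 8.18 in high 4 and 5.42 in low 5, the arrays that were also first and second for IFNG.

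After subtraction of class means, the mean of the 4 response genes was most closely followed by GPM6B (r = 0.93), ZBP1 (0.92), SELE (0.92), CLIC2 (0.91), STX11 (0.91) and AQP8 (0.91). Without high 4, r was between 0.88 and 0.91 for these genes. Such an r leaves out the difference between the classes. That difference was 0.85 for ZBP1, -0.29 for GPM6B, -0.82 for CLIC2 and between 0.057 and 0.10 for SELE, STX11 and AQP8. None of these genes passed in limma. ZBP1 is a sensor of Z-form nucleic acids that interferons induce. Its level was 6.34, 5.80, 5.75, 6.91 and 5.67 in high 1 to high 5, and from 4.66 over a median of 5.02 to 5.96 in low prolificacy. SELE is an adhesion molecule of activated endothelium and AQP8 a water channel. These likenesses were found by ranking and are descriptions.

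The surrounding pathway was described with 6 lists, written from textbook knowledge, of which 77 of 137 genes had a probe set of their own. Without the 5 genes above, 8 of 72 passed as higher in high prolificacy and 3 as lower, and the median difference was 0.27, beside 0.073 over the brightest probe sets of all 6765 genes. Among those 6765, 5.34% were called higher and 5.42% lower, and 26.8% had an unadjusted p under 0.05, beside which the counts at that threshold below are to be read. In 5 of the 77 genes the classes did not overlap, which was so of 3.78% of the 6765. They were IRF7, IFNAR2, ISG20 and JAK1, and IL21, which did not pass in limma (0.24, adjusted p = 0.16) and was picked out after its values were seen.

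Of the 4 ligands on the array, 0 passed in limma and 0 had an unadjusted p under 0.05. IFN-DELTA-1, the short type I interferon of the pig conceptus, was at 4.81 ± 0.14 in the 5 high prolificacy uteri and 4.63 ± 0.24 in the 9 low prolificacy uteri (mean ± SD). IFNB1, interferon beta, was at 2.90 in high and 2.69 in low prolificacy. IFNA1, picked out after its values were seen, averaged 5.33 in either class, and the 95% interval of its difference was -0.36 to 0.36. All 3 averaged below the lowest array median of 5.72 in both classes.

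Of 13 receptors and signal transducers, 2 rose and 2 fell. IFNAR2, the signalling chain of the type I receptor, was between 7.09 and 7.33 in high and between 6.42 and 7.06 in low prolificacy, and rose 1.35-fold (0.43 ± 0.12 SE, limma adjusted p = 0.041). Its dimmer probe set rose too, by 0.83 on the log2 scale (adjusted p = 0.0061). IL10RB, a receptor chain shared by interferon lambda and interleukin 10, rose 2.15-fold (adjusted p = 0.026). JAK1, the kinase on both the type I and type II receptors, was between 9.20 and 9.69 in high and between 9.74 and 10.37 in low prolificacy, and its log2 level fell by 0.49 (limma adjusted p = 0.017). A second, dim JAK1 probe set was at 3.25 in high and 3.24 in low prolificacy. JAK2, the kinase of the IFNG receptor chain IFNGR2, fell by 0.98 on the log2 scale (adjusted p = 0.036), and its second probe set differed by -0.98 without passing (adjusted p = 0.19). IFNGR1, the binding chain for IFNG, was picked out after its values were seen and differed by -0.019 (95% interval -0.73 to 0.69).

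Among 10 regulatory factors and sensors, IRF7 was the only one to pass. IRF3, the factor activated directly by virus sensors, differed by 0.46 (limma adjusted p = 0.20), and IRF1, the early factor of the IFNG response, by 0.52 (adjusted p = 0.26).

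Of 21 interferon-stimulated effectors, with USP18, MX2 and IFI44L among them, 6 rose and 1 fell, and the median difference was 0.77. An unadjusted p under 0.05 was found for 13 of the 21, of which 12 were higher and 1 lower, beside 26.8% of all genes. DDX60, a helicase that assists RNA sensing, rose 3.19-fold (1.67 ± 0.37 SE, limma adjusted p = 0.013). Its level was between 4.44 (high 5) and 6.77 (high 3) in high prolificacy, and between 3.77 and 5.18 in low prolificacy. ISG20, an exonuclease that degrades viral RNA, was at 5.36 ± 0.73 in the 5 high prolificacy uteri and 4.11 ± 0.16 in the 9 low prolificacy uteri (mean ± SD) and rose 2.37-fold (adjusted p = 0.0052). PARP9 and DTX3L, which act as a complex in the interferon response, rose 1.70-fold (adjusted p = 0.028) and 1.60-fold (adjusted p = 0.028). XAF1, a pro-apoptotic interferon target, rose 1.75-fold (adjusted p = 0.040). SAMHD1, a nucleotide hydrolase that restricts retroviruses, fell by 0.86 on the log2 scale (adjusted p = 0.023).

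Several of the best known effectors were spread widely within both classes and did not pass, and those given here were picked out after their values were seen. ISG15, the ubiquitin-like protein that USP18 removes, was at 9.23, 7.44, 7.63, 9.52 and 8.33 in high 1 to high 5, and from 5.77 to 8.81 in low prolificacy, the highest being low 5 and low 2 (difference 1.19 ± 0.56 SE, limma adjusted p = 0.24). RSAD2, the antiviral enzyme viperin, was at 8.26, 6.65, 6.40, 7.93 and 6.17 in high 1 to high 5, with 7.96 in low 5 (difference 0.87, adjusted p = 0.42). IFIT3 likewise was highest in high 4 (8.46) and high 1 (7.91) and then in low 2 (7.87) and low 5 (7.71), and differed by 0.76 (adjusted p = 0.40). The largest difference among the 21 was that of OAS1 (1.80, limma adjusted p = 0.093), and MX1 differed by 1.24 (adjusted p = 0.11). Over the 21 effectors, the mean of centred levels lay between 0.15 and 0.74 in high and between -0.72 and 0.37 in low prolificacy, with high 4 and high 1 at the top and low 6, low 7 and low 3 at the bottom.

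**Figure D3:**
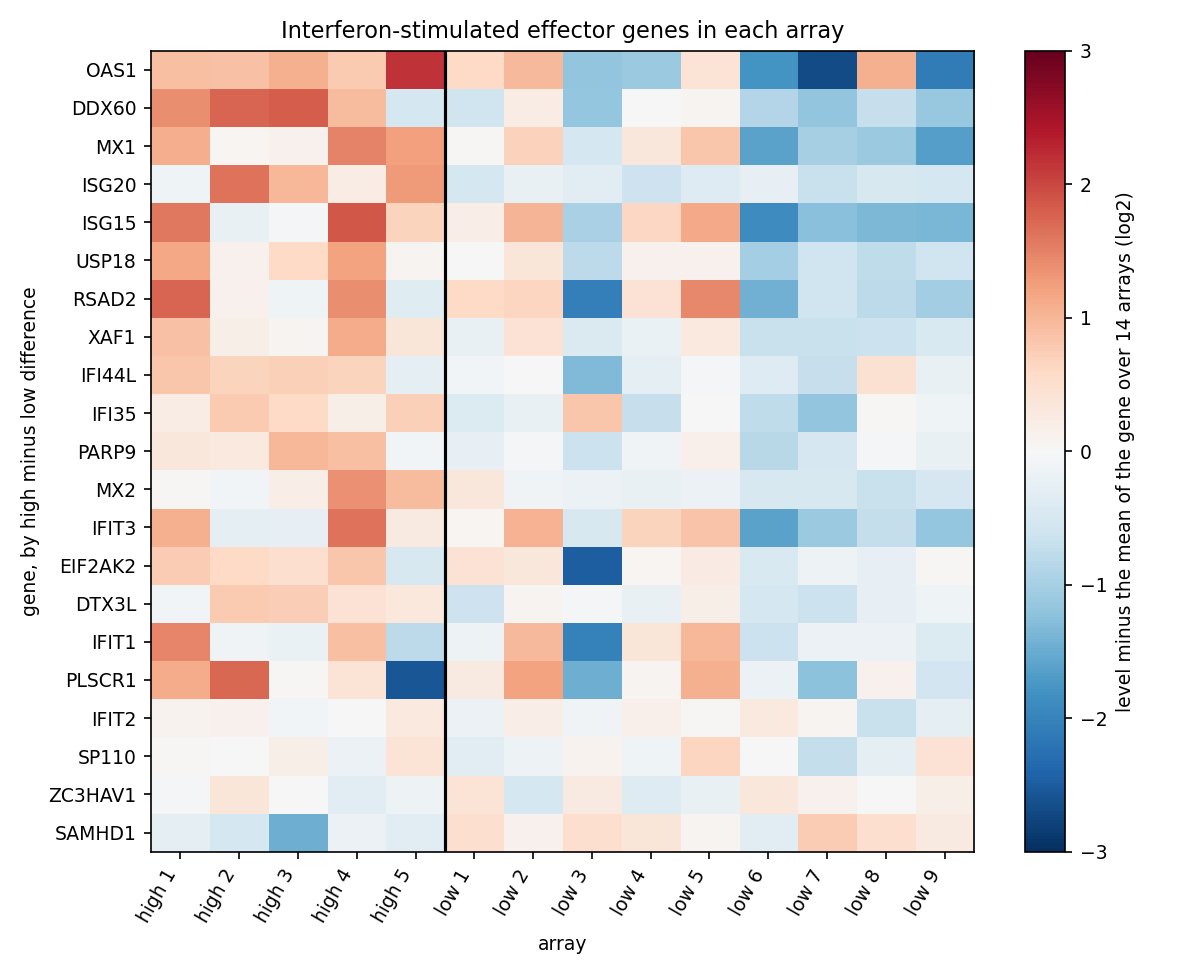
Levels of the 21 interferon-stimulated effector genes (rows, ordered by the high minus low difference) in the 5 high and the 9 low prolificacy arrays (columns), each minus the mean of the gene over 14 arrays, on a log2 colour scale. High 1 and high 4 are red in most of the upper rows, low 6, low 7 and low 9 are blue there, and SAMHD1 runs the other way.

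Of 17 genes that IFNG induces, 1 rose and 0 fell, and 7 had an unadjusted p under 0.05, of which 6 were higher and 1 lower. TAPBP, which helps to load peptides on class I molecules, rose 1.87-fold (0.90 ± 0.21 SE, limma adjusted p = 0.017). PSMB10, a catalytic subunit of the immunoproteasome, differed by 0.66 (adjusted p = 0.050, just above the threshold), and PSME1, a subunit of the proteasome activator, by 0.69 (adjusted p = 0.055). The lower one was GBP1, a guanylate-binding GTPase induced by IFNG and picked out after its values were seen, which was at 6.49 in high and 7.33 in low prolificacy (difference -0.84, adjusted p = 0.14). CXCL9, a chemokine induced by IFNG and likewise picked out afterwards, differed by 0.29 (adjusted p = 0.44). Of 12 genes for cytokines and factors that raise or restrain IFNG, 0 passed in limma and 5 had an unadjusted p under 0.05. STAT4, the factor through which interleukin 12 raises IFNG, differed by 1.26 (adjusted p = 0.061), with 0.014 in a dimmer probe set. IL18, which raises IFNG in T and NK cells, differed by -0.92 (adjusted p = 0.074), and IL18BP, its soluble inhibitor, by 0.66 (adjusted p = 0.10).

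How far these calls rested on single arrays differed between genes. Besides IRF7, those of JAK1, ISG20 and DDX60 passed in all 14 fits that left out an array, with a limma adjusted p of up to 0.048 for JAK1, 0.022 for ISG20 and 0.0498 for DDX60. XAF1 did not pass in 10 of the 14 (without high 1, 2, 4 or 5, or low 1, 4, 6, 7, 8 or 9), with an adjusted p of up to 0.0996. IFNAR2 did not pass in 9 (without any 1 high prolificacy array, or low 4, 5, 7 or 9), with an adjusted p of up to 0.089. JAK2 did not pass in 6 (without high 2, 3 or 5, or low 1, 6 or 9), with an adjusted p of up to 0.10. PARP9 did not pass in 4 (without high 2, 3 or 4, or low 7), IL10RB in 3 (without high 2, 3 or 5), DTX3L in 3 (without high 2 or 3, or low 6), SAMHD1 in 2 (without high 2 or 3) and TAPBP in 1 (without high 3). For these 5 genes the adjusted p was at most 0.10.

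**Figure D4:**
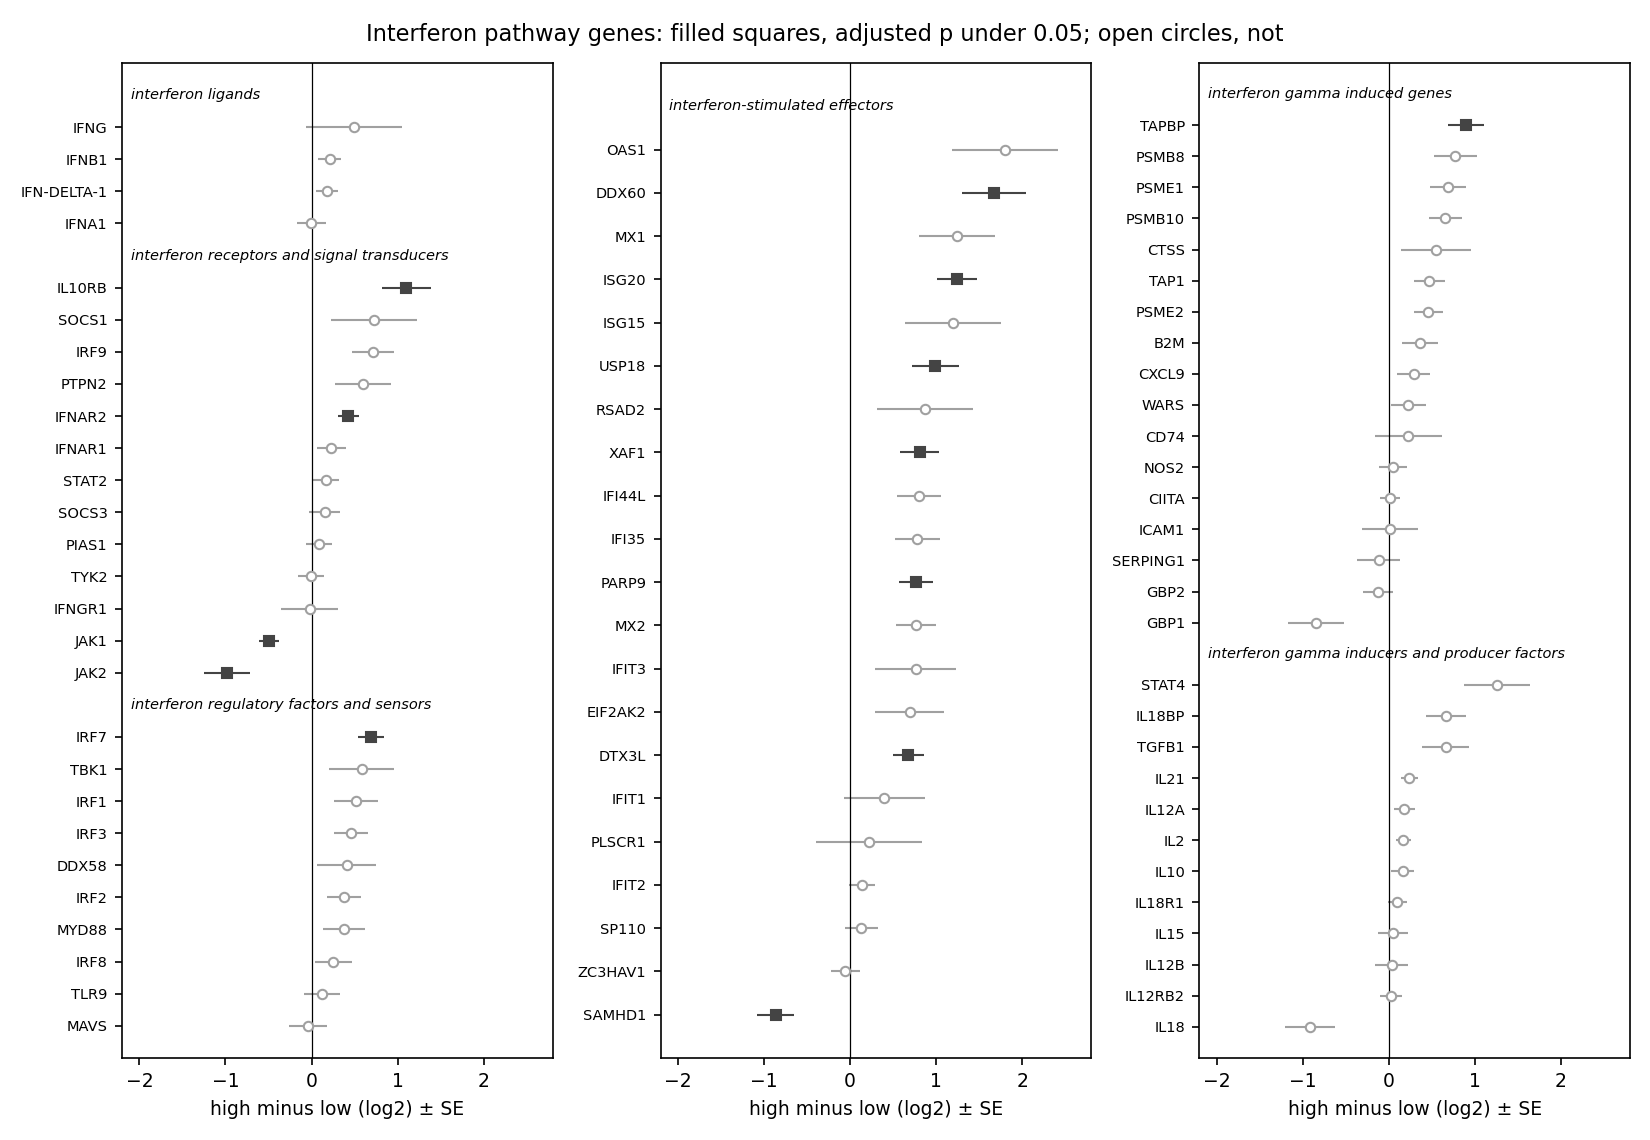
High minus low prolificacy difference (log2, horizontal axis) with its SE for the brightest probe set of the 77 genes in 6 interferon lists. Filled squares passed an adjusted p of 0.05 in limma and open circles did not, and 10 filled squares lie right of 0 and 3 left of it.

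Lists of cell type markers also differed between the classes. Of 18 epithelium markers, 8 rose and 0 fell, and the list mean lay between 0.61 and 1.48 in high and between -2.25 and 0.30 in low prolificacy. Of 20 smooth muscle markers, 0 rose and 17 fell, and the list mean lay between -2.99 and -0.12 in high and between 0.59 and 1.76 in low prolificacy. The T and NK cell mean lay between -0.073 and 0.37 in high and between -0.41 and 0.24 in low prolificacy, and the macrophage and dendritic cell mean between -0.37 and 0.69 in high and between -0.62 and 0.38 in low prolificacy. Of the 16 markers of T and NK cells and the 12 of macrophages and dendritic cells, 0 passed in limma, with 2 in each list at an unadjusted p under 0.05. All 16 of the former had a positive difference (median 0.18), as had 10 of the latter 12 (median 0.15). Over the brightest probe sets of all genes, 60.1% were positive, with a median of 0.073. CD3E, a chain of the T cell receptor complex, differed by 0.38 (limma adjusted p = 0.21), and CD86, a costimulatory ligand of antigen-presenting cells, by 0.51 (adjusted p = 0.059). Of 12 markers of stromal fibroblasts, 1 rose and 4 fell, the list mean lay between -1.16 and 0.34 in high and between -0.37 and 0.95 in low prolificacy, and COL6A3, a chain of collagen VI, fell by 2.70 on the log2 scale. Of 12 markers of blood endothelium, 1 rose and 1 fell. Of the 15 trophoblast and fetal membrane markers, 0 passed and 4 had an unadjusted p under 0.05. The epithelium and smooth muscle means did not overlap between the classes, so class and these cell types cannot be told apart in these data. The part of cell type make-up in the differences of IRF7, USP18 and the other interferon genes was therefore not tested.

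As a description, the differences of the 5 genes were fitted again beside the epithelium, the smooth muscle or the trophoblast and fetal membrane mean. With the epithelium mean as a covariate, the difference was 0.50 for IRF7 (limma adjusted p = 0.87) and 0.78 for USP18 (adjusted p = 1.00), and 0 of the 77 pathway genes passed, with 3 at an unadjusted p under 0.05. With the smooth muscle mean it was 0.57 for IRF7 and 1.20 for USP18 (both adjusted p = 1.00), and 0 of the 77 passed, with 1 at an unadjusted p under 0.05. These fits called 2 and 0 probe sets on the whole array. Both covariates separated the classes, so the loss of calls cannot tell cell type make-up from class. The mean of the trophoblast and fetal membrane list, called the trophoblast mean below, includes fetal plasma protein genes such as AFP and AHSG. With it as a covariate, IRF7 (0.60, limma adjusted p = 0.013) and USP18 (0.78, adjusted p = 0.040) passed. Of the 77 genes, 16 passed, beside 13 without a covariate. The share over all probe sets in this fit is not given here, so that count cannot be read as particular to the interferon genes. IFNG differed by -0.052 in this fit.

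**Figure D5:**
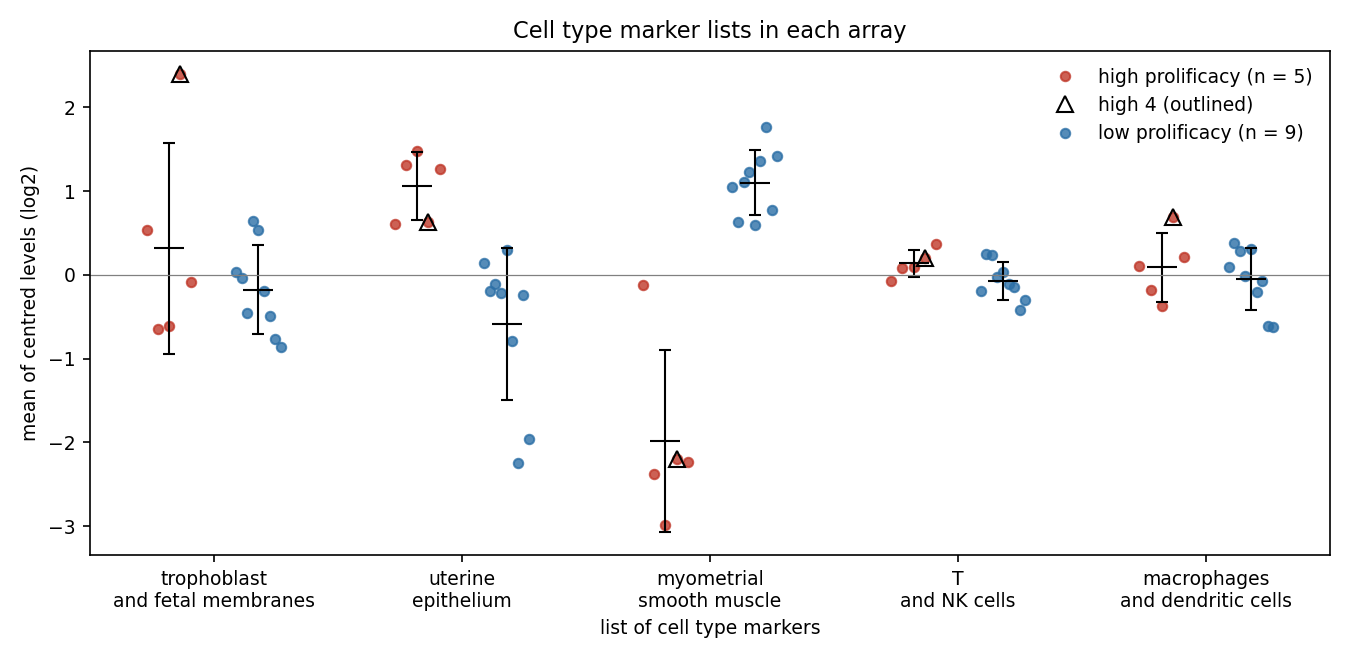
Mean of centred log2 levels over the markers of 5 cell type lists, with 1 point per array, high prolificacy left of low prolificacy, and bars for the mean ± SD. High 4, the outlined triangle, has a trophoblast and fetal membrane mean of 2.40, far above the others. The smooth muscle means of the classes do not overlap.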

How the data were processed

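Total RNA of 14 uteri was labelled and hybridized to the Affymetrix porcine GeneChip, 1 array per sow. The deposited log2 levels were summarised by the authors with RMA, per the submitters' processing notes, with settings not given in the sources used here. The method equalises probe intensities between arrays, so a shift shared by most transcripts would be removed. Of 24123 rows, 124 control probe sets were left out. Of the 23999 tested, 10069 had 1 symbol in the platform annotation, which can be old, 198 had several and 13732 none. By gene number, 9961 of the 10069 were found in the Sscrofa11.1 gene table, and 0 symbols differed. No coordinates or sequences are given.

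High minus low was fitted with limma 3.58.1 under R 4.3.3 (lmFit, eBayes, two-sided, no covariate), adjusted by Benjamini-Hochberg over all 23999. SE is limma's moderated error, and 95% intervals use its degrees of freedom. A gene stands for its brightest probe set unless stated. Relations used 100000 two-sided permutations, or all 362880 orders for 9 arrays, adjusted over the 9 relations. Both tests were tried on simulated data. For limma the simulated noise was independent between probe sets, so that trial does not cover probe sets that vary together.

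Named genes were the 5 genes and PAG6, every listed interferon gene that passed, the 3 with the smallest p per interferon list, up to 2 markers per cell type list, and the 6 most alike genes. The genes, lists and rules were chosen with earlier results of these data known. Sows are biological replicates per the labels, which name no batch; precision is limited by how few arrays there are. Alternatives were other filters, normalizations, weights, covariates, a replicate block and leaving out each array. The replicate block fitted a term for each replicate number, so its high minus low difference came from the 5 same-numbered pairs. Low prolificacy arrays whose number no high prolificacy array has did not enter that difference.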

Additional observations from a re-analysis of the deposited data

Results flagged for a closer look

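An array far from the others of its class was found 8 times in 64 comparisons (32 probe sets in 2 classes), where chance gives about 1 in 20. IFNG was far higher in high 4 (6.67) than in the next high prolificacy array (3.19), and in low 5 (4.31) than in the next low prolificacy array (3.29). IFI44L was far lower in high 5 than in the next high prolificacy array in its first probe set (8.70 against 9.65) and in its second (6.01 against 7.51). Among the pathway genes, IFNB1 was far higher in high 3 (3.34) than in the next high prolificacy array (2.86), and SAMHD1 far lower there (5.97 against 6.90). JAK1 was far higher in low 9 (10.37) than in the next low prolificacy array (10.03), and IRF3 in low 3 (8.18 against 7.66).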

How the results depend on the processing

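IRF7 passed in 20 of 23 alternatives, among them all 14 that left out an array (0.59 to 0.77), and its difference was positive in all 23. It did not pass with the epithelium (0.50) or smooth muscle mean (0.57) as a covariate or with the replicate block (0.53, limma adjusted p = 0.19). USP18 also did not pass with cyclic loess (0.96), array weights (0.74), the replicate block (0.67) and the epithelium (0.78) or smooth muscle mean (1.20), and lay between 0.85 and 1.13 when 1 array was left out. MX2 lay between 0.55 and 0.91 then, passing in 3 of those fits and in no other alternative, with 0.48 under array weights (limma adjusted p = 0.21) and 0.29 with the smooth muscle mean. IFI44L lay between 0.67 and 1.00, and passed with array weights (0.84). IFNG lay between -0.28 and 0.77 when 1 array was left out, and turned with the smooth muscle (-0.69) or trophoblast mean (-0.052). IFNAR2 did not pass among the 12000 brightest probe sets (adjusted p = 0.052), with cyclic loess (0.068), array weights (0.064), trend and robust eBayes (0.085) or the trophoblast mean (0.067), nor PARP9 with cyclic loess (0.0502), nor XAF1 with cyclic loess (0.064) or array weights (0.12), nor JAK2 with the trophoblast mean (0.054), all by limma. IFNG and MX2 were not among the 12000 brightest probe sets.

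The 13 pathway genes called became 0 with the replicate block (17 at an unadjusted p under 0.05), the epithelium mean (3) or the smooth muscle mean (1), and between 5 (without high 3) and 18 when 1 array was left out (7 without high 2). The 1885 probe sets called became 3060 with array weights, 35 with the replicate block, 2 with the epithelium mean, 0 with the smooth muscle mean (253 at an unadjusted p under 0.05), and between 944 (without high 3) and 2650 when 1 array was left out (1002 without high 2). The replicate block rested on the 5 same-numbered pairs, so its counts come from fewer arrays than those of the main fit. Of these 5 pairs, 3 deviated together (r over 0.1), with r from -0.25 to 0.42. Among the 5 high prolificacy arrays, 1 correlated best with its own number. Whether same-numbered sows shared more than a number was not tested.

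With 1 array left out, r against IFNG lay between 0.099 and 0.57 for IRF7, -0.040 and 0.63 for USP18, 0.052 and 0.75 for MX2, and -0.28 and 0.28 for IFI44L. Against PAG6 it lay between 0.29 and 0.58 for IRF7, 0.41 and 0.68 for USP18, 0.15 and 0.53 for MX2, 0.062 and 0.33 for IFI44L, and 0.29 and 0.71 for IFNG. The sign against IFNG turned by rank for IFI44L (-0.33), and without high 4 and low 5 for USP18 (-0.26) and IFI44L (-0.58). With the other PAG6 probe sets, an alternative chosen after seeing the data, and with cyclic loess, 0 of the 9 relations passed (between 2 and 4 at an unadjusted permutation p under 0.05).

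With the smooth muscle mean, IFNB1 (-0.15), IRF1 (-0.58), IRF3 (-0.43), ISG20 (-0.047), DTX3L (-0.37), PSMB10 (-0.065), PSME1 (-0.38), IL18 (0.31), IL18BP (-0.58) and STAT4 (-0.72) changed sign, as did IFNB1 (-0.012) and IRF1 (-0.0018) with the epithelium mean. The cause of these changes was not tested.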
